A study of Mus musculus with 29 samples.

Results

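KDM5-C70 (C70) is an inhibitor of the KDM5 histone demethylases, enzymes that take methyl groups off lysine 4 of histone H3, a mark of active promoters. It was given to 3T3-L1 cells, an immortalized line of mouse preadipocytes that become white adipocytes when confluent cultures receive an adipogenic cocktail. Cultures received 10 µM C70 or its vehicle, DMSO, during the 2 days before induction only. All cultures were then induced at day 0 with dexamethasone, insulin, IBMX and a PPARγ agonist, and were kept in insulin and dexamethasone after day 2. The question followed here was what had become, by day 7, of the expression differences that were present at day 2. For this, all 11959 genes of the deposited count table were used, in 15 of the 29 RNA-seq libraries. These were 3 vehicle and 4 C70 libraries at day 2, and 4 vehicle and 4 C70 libraries at day 7. The 14 libraries of days 0 and 1, with 3 vehicle and 4 C70 replicates on each day, served for readouts whose C70 effects were not used in choosing genes.

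For each gene the change from day 2 to day 7 after C70 was set against the same change in vehicle. The difference, called the shift, is the log2 C70 effect at day 7 minus the log2 C70 effect at day 2. A positive shift therefore means that expression after C70 moved up relative to vehicle. A C70 effect or a shift was called at an adjusted P value under 0.05, by the quasi-likelihood test of edgeR with Benjamini-Hochberg adjustment over all 11959 genes, and a log2 fold change over 0.32 in size, the threshold of the study. Genes called at day 2 were sorted into 4 classes. Recovered genes had a called shift against their day 2 direction and lay within 0.32 of vehicle on the log2 scale at day 7. Rebounded genes had such a shift and were called at day 7 in the opposite direction. Lasting genes were called at day 7 in the direction of day 2, and the remaining genes were unresolved. Genes not called at day 2 but called at day 7, with a called shift in the same direction, were named late genes. The sorting uses the day 2, day 7 and shift values, so these values within a class are descriptions.

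Adipogenesis in 3T3-L1 cells starts with renewed cell division after induction, and continues with the transcription factors C/EBPα and PPARγ, which switch on genes of lipid uptake, synthesis and storage. Genes of the preadipocyte, among them those for matrix proteins and for the secreted inhibitor of differentiation DLK1, are turned down on the way. Day 2 lies within the early, proliferative stage, and at day 7 cells of this line are usually filled with lipid.

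Sequencing depth ran from 16320275 to 24037170 counts per library. Replicates differed by more than counting noise, with a chi-square per degree of freedom of 2.67 to 14 for most pairs. Day 7 vehicle replicate 1 stood apart from the other 3 day 7 vehicle libraries (40.3 to 47.1), and day 7 C70 replicate 2 gave 8.51 to 12.9 against its own group, where the other pairs gave 3.14 to 5.53. The latter values lie within the range of pairs in other groups, so only the vehicle library stands apart from all. Day 7 effects of the genes described that lost their call without the vehicle library, or without both of these day 7 libraries, are given with their results. The labels do not say whether replicates were separate cultures, so P values measure the spread between these libraries, which may be technical. The cells carried the markers of their line. The 13 adipocyte markers summed to between 31678 and 38259 CPM (counts scaled to a common library total) at day 7, while 0 of 7 endothelial markers and 2 of 9 macrophage markers were in the table. The latter, *Cd68* and *Cd14*, were both higher after C70 at day 2, when they summed to 9.02 to 10.1 CPM against 3.07 to 4.14 CPM in vehicle, and neither was called at day 7 (4.02 to 5.90 CPM against 4.39 to 6.34 CPM). At day 0 their sums were already 25.7 to 26.8 CPM after C70 against 7.81 to 8.91 CPM in vehicle. Of these 2 genes, 1 was sorted as recovered and 1 as unresolved. Their changes were not tested further, and defining macrophage markers such as *Adgre1*, *Csf1r* and *Ptprc* are not among the genes analysed here. In RNA from whole cultures, fewer cells of a kind and less RNA per cell cannot be told apart. CPM values are not scaled to transcript length, so levels are compared between libraries and not between genes. Of the 104 genes described, 44 overlap an annotated gene on the opposite strand. The counting program's use of strand is not stated, so reads of such pairs may be mixed. Counts of *Ccnb2* and *Phgdh* may also include reads of their pseudogenes.

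Between day 2 and day 7 the C70 effect moved up in 1423 genes (11.9% of those tested) and down in 1081 (9.04%), together 20.9%. Most of these 2504 genes had been called at day 2 (1717 genes), and 423 were called on neither day. At day 2, 2021 genes were higher after C70 (16.9%) and 1621 lower (13.6%), together 30.5%. At day 7, 1707 were higher (14.3%) and 580 lower (4.85%), together 19.1%. Of the 3642 genes called at day 2, 1191 (32.7%) had recovered, 114 (3.13%) had rebounded, 1315 (36.1%) were lasting and 1022 (28.1%) were unresolved. In most of the unresolved genes the shift was not called (969 genes). Another 364 genes were late.

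The 2 directions divided differently. Of the genes higher at day 2, 460 (22.8%) had recovered, 48 (2.38%) had rebounded and 1107 (54.8%) were lasting. Of those lower at day 2, 731 (45.1%) had recovered, 66 (4.07%) had rebounded and only 208 (12.8%) were lasting. Late genes were higher in 246 cases and lower in 118. The lasting class was 84.2% higher genes, and 73.7% after quantile normalization. For late genes this share was 67.6% and 51.8%, for rebounded genes 42.1% and 54.8%, and for all day 7 calls 74.6% and 61.7%.

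Lasting and recovered genes were found at all sizes of the day 2 effect. Among the 527 genes more than 2-fold higher at day 2, 73.2% were lasting and 16.7% had recovered. Among the 90 genes more than 2-fold lower, 32.2% were lasting and 52.2% had recovered. For day 2 effects of up to 1.5-fold, 38.5% of 839 higher genes and 10.6% of 1063 lower genes were lasting. The median log2 effect of recovered higher genes was 0.62 at day 2 and 0.028 at day 7, and that of lasting higher genes 0.78 and 0.72. In 482 of the 731 recovered lower genes (65.9%) and 244 of the 460 recovered higher genes (53.0%), the 95% interval of the day 7 log2 effect lay within 0.32 on either side of 0, so for the others a larger remaining effect is within the error. At the edges, *Arl4d* (0.3203) and *Pfkfb3* (0.3213) were just inside the limit of the recovered class at day 7. *Brca2* (0.3222), a rebounded gene, was just outside.

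**Figure D1:**
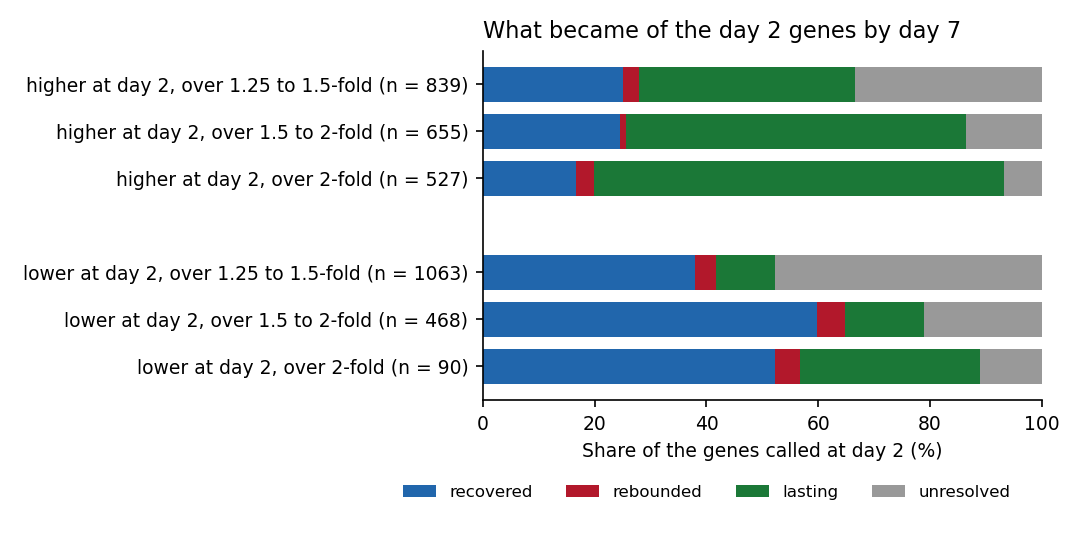
Share of the genes called at day 2, in percent, that had recovered, rebounded, lasted or stayed unresolved by day 7, 1 bar for each direction and size of the day 2 effect. Lasting genes make up 73.2% of the genes more than 2-fold higher and 38.5% of those up to 1.5-fold higher, against 32.2% and 10.6% of the lower genes of these sizes.

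**Figure D2:**
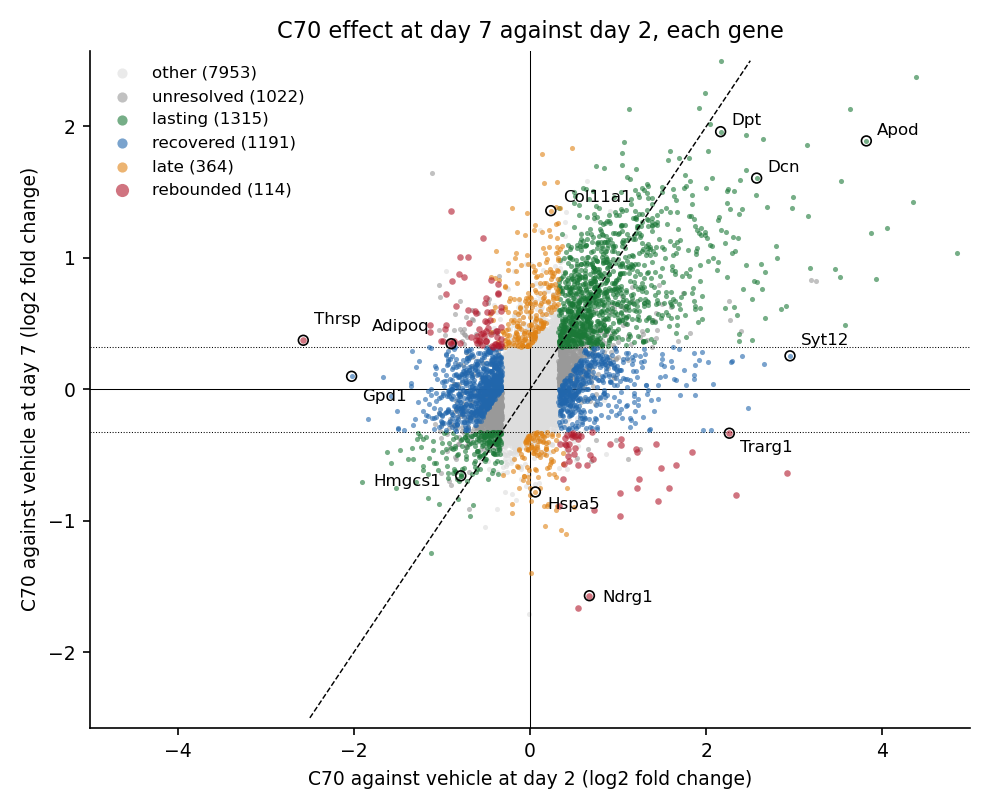
C70 effect (log2 fold change against vehicle) at day 2 on the horizontal axis and at day 7 on the vertical axis, 1 point per gene, coloured by class. The dashed line marks equal effects on both days and the dotted lines the fold threshold at day 7. Recovered genes lie along the horizontal line at 0, lasting genes lie in the upper right and lower left corners, and rebounded genes cross into the opposite corners.

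Most markers of the adipocyte were lower after C70 at day 2, and none of them was called lower at day 7. Of the 13 markers, 11 were lower at day 2 and 2 were higher at day 7, when the effect was below 0 in 5 and above 0 in 8. Their median log2 effect went from -0.69 to 0.088, against -0.0036 and 0.0038 over all genes tested. The shift was upward in 12 of 13, and the classes held 9 as recovered and 2 as rebounded. The day 7 count of 2 higher markers was 3 without vehicle replicate 1, and 1 when C70 replicate 2 was left out as well. The markers summed to 26977 to 27824 CPM in vehicle and 15794 to 17543 CPM after C70 at day 2, and the groups did not overlap. On day 7 the sums were 31678 to 37706 CPM in vehicle and 34639 to 38259 CPM after C70, and the ranges overlapped. These values are RNA levels only. By lipid staining and qPCR, the study reported that C70 given before induction only impaired lipid accumulation and the expression of adipogenic and lipogenic genes. The difference between those assays and these libraries was not tested.

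By the naming rule described below, the recovered lower gene with the largest shift was *Gpd1* (chr15:99717515-99725005 in GRCm38). It encodes the glycerol-3-phosphate dehydrogenase that supplies the backbone of triglycerides. Its day 2 level was 741, 766 and 735 CPM in vehicle and 176, 225, 174 and 159.9 CPM after C70. By day 7 it was 1547, 1494, 1461 and 1302 CPM in vehicle and 1552, 1582, 1619 and 1463 CPM after C70. The groups were fully apart at day 2 and overlapped at day 7. The log2 effect was -2.03 ± 0.085 (SE) at day 2 and 0.099 ± 0.077 at day 7, and the shift was 2.13 ± 0.12 (adjusted P = 1.4e-14 by edgeR). *Gpd1* rose from day 2 to day 7 in both arms, by 0.96 in vehicle and 3.08 after C70 on the log2 scale. On the earlier days, which took no part in the sorting, it was already lower at day 1 (-2.26, adjusted P = 1.74e-13) but not called at day 0 (0.26, adjusted P = 0.555).

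*Pparg*, the master regulator of fat cell formation, was measured at 165, 166 and 169.9 CPM in vehicle and 103, 114, 119.5 and 113 CPM after C70 at day 2. At day 7 its level was 516, 465, 473 and 481 CPM and 422, 476, 430.2 and 412 CPM, and the lowest vehicle libraries lay among those with C70. The shift of *Pparg* was 0.42 ± 0.071 (adjusted P = 3.52e-05), and its remaining day 7 effect was -0.15 ± 0.047 (adjusted P = 0.0105), under the fold threshold. *Cebpa*, its partner in adipocyte gene control, went from an effect of -0.85 to -0.13 (shift 0.73 ± 0.10, adjusted P = 2.62e-06). Of the 23 genes in the list of transcription factors that drive or restrain adipogenesis, which holds both, 5 were lower and 6 higher at day 2, and 1 was lower and 4 higher at day 7. In that list 4 lower and 2 higher genes had recovered and 5 were lasting, and the median effect was -0.031 at day 2 and 0.068 at day 7.

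*Fabp4*, the fatty acid carrier of adipocytes, was at 7503, 7169.6 and 7798 CPM in vehicle against 3492, 4033, 3895 and 3735 CPM after C70 at day 2. On day 7 it was at 7279, 5629, 5484 and 5200.5 CPM against 5874, 5900.4, 5643 and 5427 CPM, where only vehicle replicate 1 exceeded every C70 library. *Slc2a4*, the insulin-responsive glucose transporter, had 19.1, 21.9 and 25.1 CPM in vehicle and 9.07, 11.8, 8.80 and 8.20 CPM after C70 at day 2, and 279, 261, 249.7 and 258 CPM and 219.6, 246, 235 and 231 CPM at day 7. It was thus called 2 days after induction and not at day 7 (log2 effect -0.17 ± 0.072, adjusted P = 0.0611), although vehicle stayed above C70 in every library. *Cfd*, which encodes the secreted protease adipsin, rose in both arms more than any other gene described here, from 46.1, 49.1 and 45.5 to 4274, 2968, 2908 and 2918 CPM in vehicle and from 24.8, 30.4, 26.04 and 25.1 to 3651, 4100.5, 3638 and 3409.7 CPM after C70. Its day 7 effect was 0.18 ± 0.084 (adjusted P = 0.0892) with all libraries and 0.34 (adjusted P = 1.46e-06) without vehicle replicate 1, past the thresholds of the rebounded class, but 0.29 and not called without C70 replicate 2 as well.

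Most genes of fatty acid and triglyceride metabolism were also lower at day 2 and fewer were at day 7. Of 34 in the table, 21 were lower and 1 higher at day 2, and 6 were lower and 3 higher at day 7. The day 7 count of higher genes was 5 without vehicle replicate 1, 6 without C70 replicate 2 and 5 without both. Their median effect went from -0.55 to -0.025. In this list 13 lower genes and 1 higher gene recovered, and 3 rebounded. *Fasn*, fatty acid synthase, was at 2699.6, 2726 and 2594 CPM in vehicle and 1348, 1379.8, 1405 and 1372 CPM after C70 at day 2, and at 3329, 4578, 4171 and 4088 CPM and 5067, 4014, 4455 and 5880.3 CPM at day 7, a shift of 1.22 ± 0.12 (adjusted P = 1.47e-09). Its day 7 effect was 0.26 with all libraries and 0.35, past the thresholds, without C70 replicate 2. *Acsl1*, which activates long-chain fatty acids, fell in vehicle from 6599.5, 6594 and 6705 to 3769.8, 3972, 3912 and 3798 CPM and rose after C70 from 3066, 3332, 3163 and 3122 to 4474, 4134, 4309 and 4371 CPM. The arms met from opposite sides, and at day 7 every C70 library was slightly above every vehicle library (effect 0.16 ± 0.048, adjusted P = 0.00749, under the fold threshold). Of 13 genes of lipid droplets and lipolysis, 6 were lower and 1 higher at day 2 and none was called at day 7, with 6 upward shifts and 1 downward. In this list *Cidec*, a protein of the lipid droplet surface, shifted by 0.99 (adjusted P = 2.5e-08), *G0s2*, an inhibitor of triglyceride breakdown, by 1.38 (adjusted P = 5.78e-09), and *Mgll*, monoglyceride lipase, by 1.61 (adjusted P = 2.58e-08).

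Other leaders of the recovered lower class have roles outside lipid storage itself. *Syn2*, a synapsin better known from nerve terminals, had 47.2, 48.5 and 47.9 CPM in vehicle and 19.1, 21.99, 20.4 and 18.6 CPM after C70 at day 2, and 372, 362, 365 and 366 CPM and 402, 437, 426 and 433 CPM at day 7. It shifted by 1.47 ± 0.11 and *Tmem120b*, a membrane protein of the nuclear envelope with a known part in adipocyte differentiation, by 1.39 ± 0.09 (adjusted P = 6.36e-12 and 6.63e-13). For *Syn2* all 4 C70 libraries lay above all 4 vehicle libraries at day 7, by 0.21 ± 0.065 (adjusted P = 0.00887), again under the fold threshold.

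**Figure D3:**
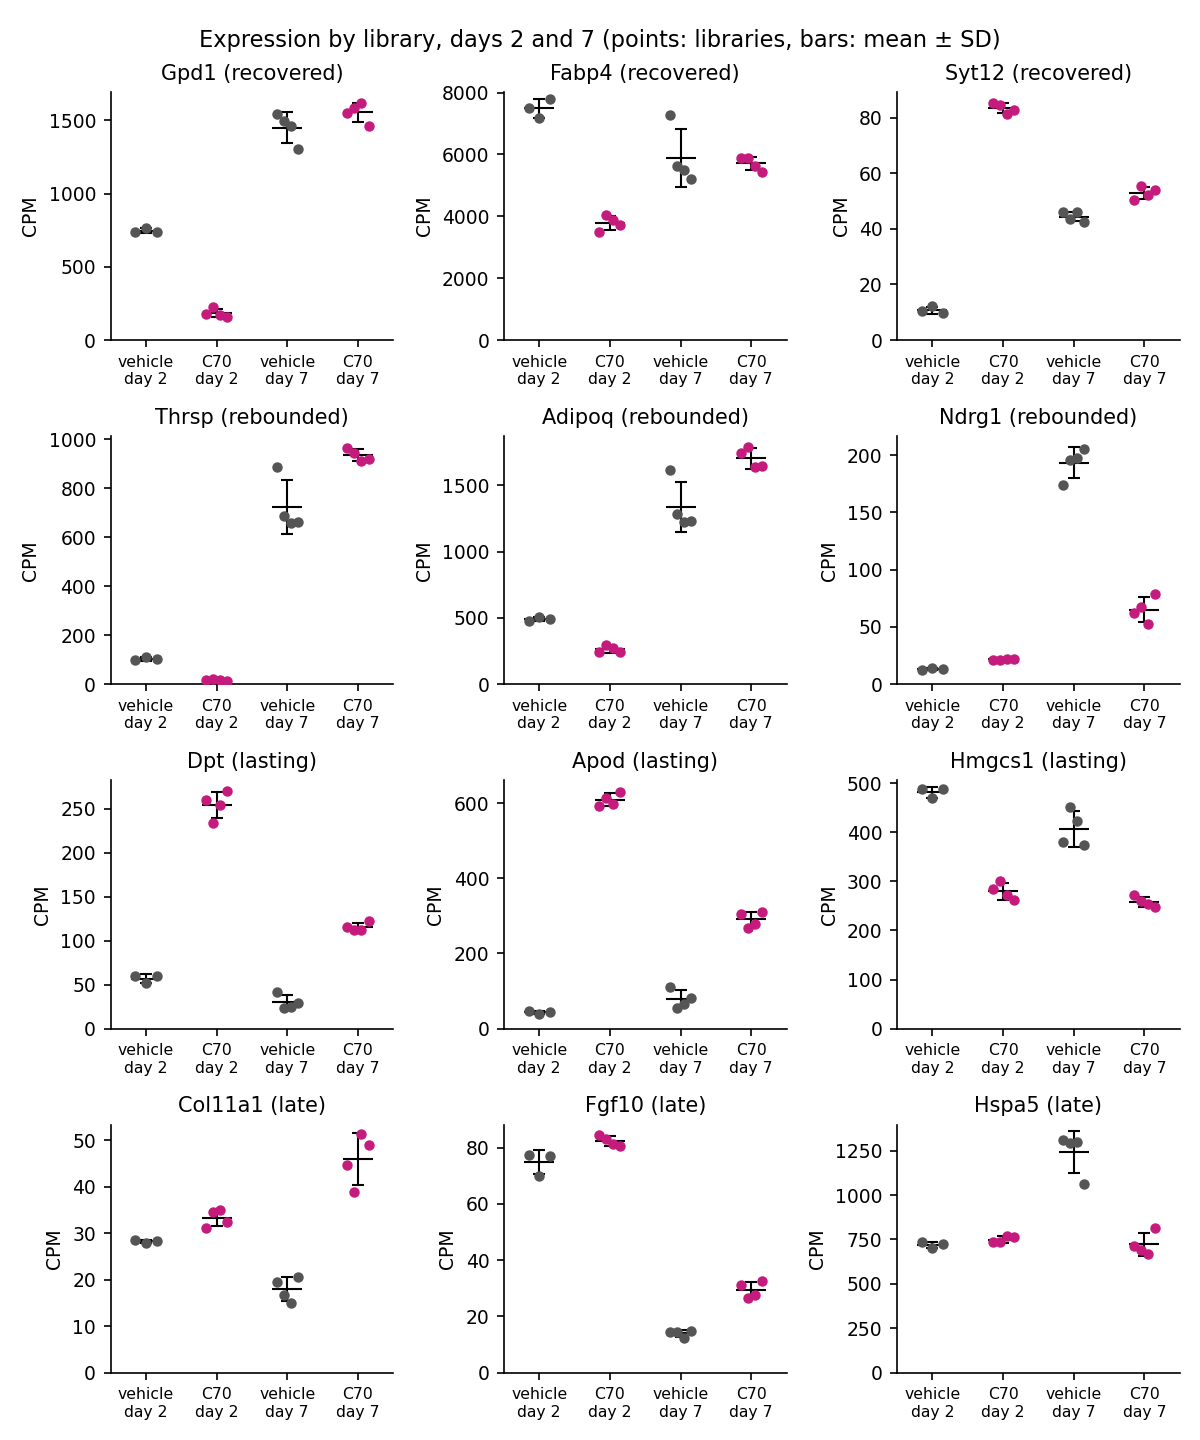
Expression in CPM on a linear axis from 0, 1 point per library with the mean and SD of the group as bars, in vehicle and C70 libraries at days 2 and 7, for genes of the recovered, rebounded, lasting and late classes. *Gpd1* libraries are apart at day 2 and together at day 7, *Ndrg1* changes sides, and *Dpt* stays apart on both days.

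Recovery could come about by a rise after C70, by a fall in vehicle or by a difference in the size of a common change. From day 2 to day 7, 3182 genes rose in vehicle (26.6% of those tested) and 3196 fell (26.7%), together 53.3%. After C70, 3300 rose (27.6%) and 3257 fell (27.2%), together 54.8%. Among the 731 recovered lower genes, 283 (38.7%) rose in both arms, 180 (24.6%) rose after C70 only, 108 (14.8%) fell in both and 107 (14.6%) fell in vehicle only. Among the 460 recovered higher genes, 114 (24.8%) rose in both arms, 101 (21.96%) fell after C70 only, 95 (20.7%) fell in both and 85 (18.5%) rose in vehicle only. In these counts "only" means that the other arm was not called. Lasting higher genes mostly fell in both arms (589 of 1107, 53.2%), and lasting lower genes mostly rose in both (136 of 208, 65.4%).

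**Figure D4:**
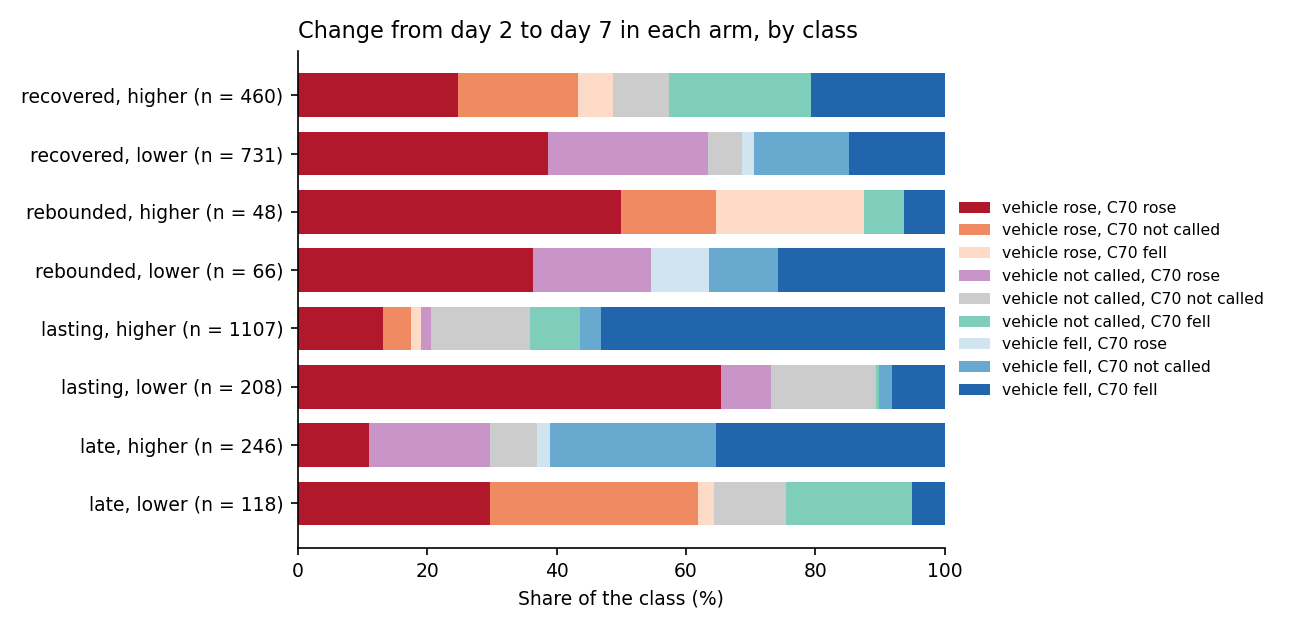
Share of each class, in percent, by the called change from day 2 to day 7 in the vehicle arm and in the C70 arm. Recovered lower genes rose in both arms in 38.7% of cases, and lasting higher genes fell in both in 53.2%.

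Genes of the cell division cycle fell in both arms between day 2 and day 7, and the difference between arms shrank. Of 68 genes of G2 and mitosis, 65 were lower after C70 at day 2 and none was higher, with a median log2 effect of -0.82. The median change from day 2 to day 7 was -4.25 in vehicle and -3.37 after C70. At day 7, 4 were lower and 8 higher after C70, with a median effect of 0.014, and the shift was upward in 37 and downward in none. The day 7 shares over all genes tested were 4.85% lower and 14.3% higher, so these counts are near the background. Some members had very low levels at day 7, as given below. The classes held 26 as recovered, 6 as rebounded, 4 as lasting and 29 as unresolved. Of 55 S phase genes, 39 were lower at day 2, 2 were lower and 2 higher at day 7, and 30 shifted upward, and their median effect went from -0.46 to -0.044. Their median change from day 2 to day 7 was -1.83 in vehicle and -1.36 after C70. Without vehicle replicate 1, 4 S phase genes were higher at day 7, and without C70 replicate 2 as well 2 genes of G2 and mitosis were lower.

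Promoters of G2 and mitosis genes are known for a pair of elements, the CHR element with the core TTTGAA and CCAAT boxes. RefSeq promoters (GRCm38.p6, 250 bases before to 50 after the start) were found for 56 of the 68 genes. On either strand TTTGAA was present in 38 (67.9%) and CCAAT in 39 (69.6%), against 11.6% and 39.7% of the 9007 genes of the table with such a promoter. Matches of the 2 motifs can share a base at their ends. The promoters of *Cdk1* (chr10:69352863-69353162, minus strand) and *Ccnb2* (chr9:70421505-70421804, minus strand) are shown because these genes fell into different classes, rebounded and recovered, and both motifs are in each. Capitals mark TTTGAA and CCAAT on either strand.
Cdk1: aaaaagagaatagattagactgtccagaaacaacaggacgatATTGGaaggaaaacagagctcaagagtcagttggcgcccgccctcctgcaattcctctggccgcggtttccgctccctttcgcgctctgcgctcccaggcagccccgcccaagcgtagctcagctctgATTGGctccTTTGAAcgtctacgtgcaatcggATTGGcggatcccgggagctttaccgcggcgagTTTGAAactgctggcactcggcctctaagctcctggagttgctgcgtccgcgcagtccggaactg
Ccnb2: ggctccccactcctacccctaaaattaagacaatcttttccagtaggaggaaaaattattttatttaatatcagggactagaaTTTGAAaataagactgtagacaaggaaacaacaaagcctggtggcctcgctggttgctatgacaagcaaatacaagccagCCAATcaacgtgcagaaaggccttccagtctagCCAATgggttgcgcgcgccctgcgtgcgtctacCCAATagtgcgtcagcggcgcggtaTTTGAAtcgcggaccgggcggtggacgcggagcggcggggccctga

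*Ccnb2*, a mitotic cyclin, was at 14.7, 15.96 and 14.9 CPM in vehicle and 6.40, 7.48, 6.88 and 8.40 CPM after C70 at day 2, and at 0.64, 0.451, 0.735 and 0.329 CPM and 0.697, 0.355, 0.535 and 0.686 CPM at day 7. It recovered, with a shift of 1.13 ± 0.32 (adjusted P = 0.00655) at day 7 levels under 1 CPM. *Cdk1*, the kinase that drives mitosis, had 36.03, 34.7 and 38.8 CPM in vehicle and 21.7, 23.8, 22.2 and 23.98 CPM after C70 at day 2, and 8.15, 4.68, 5.24 and 5.70 CPM and 8.25, 8.46, 7.495 and 7.02 CPM at day 7. It rebounded (0.40 ± 0.13 at day 7, adjusted P = 0.012), and only vehicle replicate 1 lay among the C70 libraries. Without that library the day 7 effect was 0.59 (adjusted P = 0.000156).

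*Plk4*, the kinase that starts centriole duplication, gave the clearest rebound of this group. It was at 12.5, 14.2 and 14.9 CPM in vehicle and 7.36, 7.199, 7.66 and 6.35 CPM after C70 at day 2, and at 3.08, 3.16, 2.84 and 3.29 CPM and 4.02, 4.67, 4.16 and 4.48 CPM at day 7. The groups were apart on both days, on opposite sides (effects -0.96 ± 0.085 and 0.49 ± 0.11, adjusted P = 7.85e-11 and 0.000762). *Tpx2*, a spindle assembly factor, and *Pole*, the catalytic subunit of DNA polymerase epsilon, also changed sides, with shifts of 0.82 ± 0.13 and 0.93 ± 0.15 (adjusted P = 1.22e-05 and 1.48e-05). For *Tpx2* the day 7 effect was 0.44 ± 0.11, and the day 7 libraries overlapped. Its vehicle replicate 1 (7.68 CPM) lay above C70 replicate 3 (7.555 CPM). The day 7 effect of *Pole* was 0.41 (adjusted P = 0.00955), and it was 0.36 (adjusted P = 0.0578) and not called without vehicle replicate 1 and C70 replicate 2. *Birc5*, the mitotic regulator survivin, and *Cdca5*, a protector of sister chromatid cohesion, were at or under 2.16 and 1.02 CPM in every day 7 library. The spindle checkpoint kinase *Bub1* was at 0, 0.169, 0.147 and 0.164 CPM in vehicle and 0.161, 0.355, 0.297 and 0.475 CPM after C70 at day 7. Its day 7 effect was 1.35 (adjusted P = 0.0366). That call was lost without vehicle replicate 1 (0.99, adjusted P = 0.13), without C70 replicate 2 (1.31, adjusted P = 0.0638) and without both (0.95, adjusted P = 0.189). *Ccna2*, the S phase and G2 cyclin, remained unresolved (day 7 effect -0.42 ± 0.34, adjusted P = 0.351). The G1 cyclins *Ccnd2* and *Ccne1* recovered, with shifts of 0.58 ± 0.085 and 0.65 ± 0.10 (adjusted P = 4.08e-06 and 9.88e-06). In *Ccnd2* the arms had crossed, but the day 7 effect of 0.25 ± 0.058 (adjusted P = 0.000968) was under the fold threshold.

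Amino acid genes were also among those that regained vehicle level. Of 31 genes of amino acid synthesis, transport and the integrated stress response, 23 were lower and 1 higher at day 2, and none was lower and 4 were higher at day 7. Of all genes tested, 4.85% were lower and 14.3% higher at day 7, so the higher calls do not set this list apart. The shift was upward in 24 and the median effect went from -0.46 to 0.052. In this list 17 lower genes and 1 higher gene recovered, and 3 rebounded. Without vehicle replicate 1 and C70 replicate 2, 2 were higher at day 7. Of 21 genes of branched-chain amino acid breakdown, 14 were lower at day 2 and 1 at day 7, and 11 recovered (median -0.44 at day 2 and -0.064 at day 7). *Bcat2*, the mitochondrial transaminase that opens that pathway, was at 291, 292 and 287 CPM in vehicle and 142, 157, 155 and 144 CPM after C70 at day 2, and at 1463, 1133, 1141 and 1153 CPM and 1281, 1335, 1305 and 1197 CPM at day 7. It recovered with a shift of 1.02 ± 0.10 (adjusted P = 5.09e-09), and *Hibch*, a later enzyme of valine breakdown, with one of 0.70 ± 0.066 (adjusted P = 1.39e-09).

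The stress response acts through the factor ATF4, which binds elements with the core TGATGCAA. That motif was chosen after the values were seen. It was present on either strand in 5 of the 25 list members with a RefSeq promoter, against 0.566% of the 9007 promoters. The promoters of *Chac1* (chr2:119350992-119351291, plus strand), which rebounded, and *Nupr1* (chr7:126625421-126625720, minus strand), which recovered, are shown as examples, with the match in capitals.
Chac1: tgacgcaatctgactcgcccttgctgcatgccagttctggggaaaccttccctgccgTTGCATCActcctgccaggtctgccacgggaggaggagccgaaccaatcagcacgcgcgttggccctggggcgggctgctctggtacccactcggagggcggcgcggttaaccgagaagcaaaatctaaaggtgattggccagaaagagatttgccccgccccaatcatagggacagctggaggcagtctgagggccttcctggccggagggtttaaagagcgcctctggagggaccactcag
Nupr1: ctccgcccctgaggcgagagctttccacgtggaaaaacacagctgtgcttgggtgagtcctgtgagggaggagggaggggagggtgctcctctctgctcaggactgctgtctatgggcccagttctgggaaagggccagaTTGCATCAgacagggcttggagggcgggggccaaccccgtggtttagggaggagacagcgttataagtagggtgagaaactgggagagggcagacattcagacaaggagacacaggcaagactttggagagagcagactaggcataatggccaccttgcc

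*Nupr1*, a stress-induced chromatin protein, was at 23.7, 26.1 and 24.8 CPM in vehicle and 10.8, 10.5, 11.1 and 11.01 CPM after C70 at day 2, and at 112, 84.9, 93.0 and 86.1 CPM and 88.0, 98.7, 86.0 and 83.7 CPM at day 7 (shift 1.12 ± 0.11, adjusted P = 4.56e-09). It had been lower at day 0 (-1.26, adjusted P = 2.7e-12) and day 1 (-1.04, adjusted P = 7.24e-11) as well, and its day 7 libraries overlapped. *Chac1*, which degrades glutathione, had 16.2, 16.6 and 13.4 CPM in vehicle and 8.27, 8.55, 7.96 and 8.04 CPM after C70 at day 2, and 19.4, 20.1, 19.8 and 22.3 CPM and 26.7, 31.4, 28.8 and 18.4 CPM at day 7. One C70 library was below every vehicle library at day 7. The day 7 call was lost without C70 replicate 2 (0.27, adjusted P = 0.0561) and without vehicle replicate 1 as well (0.25, adjusted P = 0.0822). *Phgdh*, the first enzyme of serine synthesis, rebounded without overlap, from 45.8, 45.4 and 44.9 CPM in vehicle and 34.0, 36.1, 36.2 and 38.2 CPM after C70 at day 2 to 134, 109.7, 104 and 114 CPM and 164, 164, 167 and 145 CPM at day 7. Its shift was 0.80 ± 0.094 (adjusted P = 1.08e-07). *Slc7a1*, a carrier of cationic amino acids, shifted by 0.94 ± 0.13 (adjusted P = 1.37e-06), with overlapping day 7 libraries. It was sorted as rebounded at a day 7 effect of 0.37, which fell under the fold threshold without vehicle replicate 1 (0.25) and without C70 replicate 2 as well (0.26). *Pck2*, the mitochondrial PEP carboxykinase, recovered with a shift of 1.15 ± 0.078 (adjusted P = 1.74e-12).

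Genes that were high after C70 at day 2 and recovered were led by *Syt12*, a synaptotagmin of membrane trafficking (chr19:4445908-4477447). It was at 10.5, 12.2 and 9.57 CPM in vehicle and 85.4, 84.7, 81.3 and 82.8 CPM after C70 at day 2. On day 7 it was at 45.9, 43.5, 45.9 and 42.4 CPM and 50.5, 55.5, 52.1 and 53.9 CPM. *Syt12* rose in vehicle (2.04) and fell after C70 (-0.66), and the remaining effect of 0.25 ± 0.058 (adjusted P = 0.000666) still left every C70 library above every vehicle library. Its shift, -2.70 ± 0.092 (adjusted P = 3.11e-19), was the largest of the recovered higher class by the naming rule. *Syt12* was also higher at day 0 (1.34, adjusted P = 3.05e-05) and day 1 (2.32, adjusted P = 7.04e-21).

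*Porcn*, which attaches the lipid that Wnt proteins need for secretion, also met vehicle from opposite sides. It was at 33.1, 32.9 and 30.9 CPM in vehicle and 80.6, 76.4, 86.5 and 86.4 CPM after C70 at day 2, and at 60.1, 58.9, 60.2 and 54.9 CPM and 46.2, 47.1, 43.6 and 51.5 CPM at day 7. At day 7 the C70 libraries lay below all vehicle libraries (-0.31 ± 0.056, adjusted P = 4.29e-05), just inside the limit of the class. *Plekha6*, a pleckstrin homology protein, and the unnamed gene AC125101.1 rose in both arms, and more in vehicle, with shifts of -1.74 ± 0.17 and -1.66 ± 0.27 (adjusted P = 1.76e-09 and 2.07e-05). For AC125101.1 the day 7 effect was -0.30 ± 0.14 (adjusted P = 0.0821) and, without vehicle replicate 1, -0.48 (adjusted P = 0.00012), which passes the thresholds in the opposite direction.

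*Tnc*, the matrix protein tenascin C, fell in both arms. It was at 26.3, 19.5 and 25.7 CPM in vehicle and 99.2, 85.4, 87.6 and 94.3 CPM after C70 at day 2, and at 3.259, 4.56, 2.60 and 4.49 CPM and 4.02, 3.79, 5.12 and 5.12 CPM at day 7, where the groups overlapped (shift -1.66 ± 0.19, adjusted P = 6.6e-08). *Pdk4*, which restrains pyruvate oxidation, had 86.2, 96.0 and 93.1 CPM in vehicle and 242, 209.9, 231 and 236 CPM after C70 at day 2, and 104, 125, 125 and 138 CPM and 121, 119, 118 and 122 CPM at day 7 (shift -1.36 ± 0.093, adjusted P = 2.15e-12). Among the lists, recovered higher genes also included the BMP antagonist *Grem1* (-1.17 ± 0.13, adjusted P = 5.16e-08), the basement membrane collagen *Col18a1* (-0.91 ± 0.071, adjusted P = 3.5e-11), the actin-binding tropomyosin *Tpm2* (-0.83 ± 0.13, adjusted P = 7.11e-06) and the imprinted transcript *Peg13* (-0.87 ± 0.081, adjusted P = 1.39e-09). *Plin3*, a perilipin that coats nascent lipid droplets, and *Gpx1*, a glutathione peroxidase, recovered from day 2 effects of 0.73 and 0.65 to -0.067 and -0.072. Of 25 contractile genes, 15 were higher and 2 lower at day 2, 8 were higher at day 7, and 8 shifted downward and 3 upward. Of 21 genes that respond to glucocorticoids, 12 were higher and 3 lower at day 2, 6 and 3 at day 7, and 9 shifted downward and 2 upward.

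Interferon-stimulated genes were high after C70 at day 2 and less so at day 7, with day 7 counts that hung on vehicle replicate 1. Of 40 in the table, 24 were higher and 1 lower at day 2, 9 were higher and 1 lower at day 7, and 11 shifted downward and 1 upward. Leaving out vehicle replicate 1 raised the day 7 count of higher genes from 9 to 17, and leaving out C70 replicate 2 as well raised it to 21. *Ifi44*, an antiviral response gene, was at 1.57, 1.68 and 1.13 CPM in vehicle and 13.8, 14.2, 12.9 and 15.3 CPM after C70 at day 2. Its day 7 values were 1.75, 0.169, 0.196 and 0.603 CPM in vehicle and 0.858, 0.651, 1.31 and 1.79 CPM after C70, and the highest vehicle value was that of replicate 1. The shift was -2.42 ± 0.55 (adjusted P = 0.00102) with all libraries and -1.41 (adjusted P = 0.0772) without that one. The day 7 effect was 0.83 (adjusted P = 0.13) with it and 1.85 (adjusted P = 0.00144) without it, where it was called. *Oas2*, a sensor of double-stranded RNA, was at 0.09, 0.164 and 0.205 CPM in vehicle and 2.61, 3.32, 2.93 and 3.89 CPM after C70 at day 2. Its day 7 libraries overlapped, but it was still called higher (effect 1.43 ± 0.46, adjusted P = 0.0139) and was sorted as lasting. The shift of *Oas2* was -2.92 (adjusted P = 0.0168), and -2.39 and not called without vehicle replicate 1 and C70 replicate 2 (adjusted P = 0.0614). *Isg20*, an exonuclease, went against the list, with 52.5, 43.0, 39.7 and 48.2 CPM in vehicle and 22.2, 24.7, 17.1 and 21.3 CPM after C70 at day 7 (effect -1.10 ± 0.094, adjusted P = 7.04e-11).

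Rebounded genes that were low at day 2 and high at day 7 included major genes of fat synthesis. The gene with the largest shift by the naming rule was *Thrsp* (chr7:97412938-97417730), the Spot 14 protein that promotes lipogenesis. It was at 97.1, 109.9 and 102 CPM in vehicle and 17.1, 21.1, 17.1 and 13.98 CPM after C70 at day 2. At day 7 it had reached 885, 686, 656 and 659.8 CPM in vehicle and 964, 942, 911 and 920.1 CPM after C70. Every C70 library was below vehicle at day 2 and above it at day 7, although vehicle replicate 1 came close. Its log2 effect changed from -2.57 ± 0.11 to 0.37 ± 0.086 (adjusted P = 4.99e-18 and 0.000816).

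*Adipoq*, which encodes the adipocyte hormone adiponectin, was at 477, 510.1 and 491 CPM in vehicle and 247, 298, 273 and 243 CPM after C70 at day 2, and at 1619.8, 1286, 1225 and 1228 CPM and 1742, 1793, 1636 and 1643 CPM at day 7. The groups exchanged sides with no overlap on either day (day 7 effect 0.35 ± 0.073, adjusted P = 0.000319). It had been lower at day 1 too (-1.22, adjusted P = 1.74e-09). *Cd36*, the fatty acid translocase, had 1727, 1726 and 1706 CPM in vehicle and 1276, 1347, 1280.5 and 1211 CPM after C70 at day 2, and 2338, 2509.6, 2442 and 2243 CPM and 3082, 3048, 3134 and 2700.4 CPM at day 7 (effect 0.33 ± 0.055, adjusted P = 1.75e-05). Without vehicle replicate 1 and C70 replicate 2 this effect was 0.31, just under the fold threshold, and the rebound was not called.

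*Acly*, which makes cytosolic acetyl-CoA for lipid synthesis, was at 297, 298 and 295 CPM in vehicle and 186, 190.1, 195 and 196 CPM after C70 at day 2, and at 556, 606, 583 and 609 CPM and 924, 737, 739 and 1158 CPM at day 7. The C70 libraries were spread widely at day 7 but all exceeded vehicle (0.60 ± 0.08, adjusted P = 4.51e-07). *Acaca*, the carboxylase of the next step, rose above vehicle by 0.42 ± 0.077 (adjusted P = 4.73e-05), with overlapping libraries. *Sgk1*, an insulin- and glucocorticoid-responsive kinase, was nearly level between days after C70 (69.2, 68.1, 68.0 and 70.1 and 70.7, 66.8, 68.9 and 70.3 CPM), while vehicle fell from 96.4, 93.4 and 90.2 to 46.5, 42.9, 47.0 and 47.9 CPM. Its rebound (0.59 ± 0.038 at day 7, adjusted P = 2.45e-13) thus lay in the vehicle arm. *Spry1*, an inhibitor of growth factor signalling, *Siglec1*, a sialic acid receptor better known from macrophages, *Lef1*, a Wnt pathway transcription factor, and *Per3*, a clock gene, also exchanged sides without overlap. Their shifts were 1.36 ± 0.09, 1.61 ± 0.16, 0.77 ± 0.072 and 1.23 ± 0.15 (adjusted P = 1.12e-12, 7.5e-09, 1.25e-09 and 1.99e-07). The day 7 effect of *Per3* (0.37) fell under the fold threshold without vehicle replicate 1 (0.29) and without both libraries (0.30).

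Mitochondrially encoded genes moved up after C70. Of the 7 in the table, 1 was lower at day 2, and 5 were higher at day 7 and shifted upward (median effect 0.0028 at day 2 and 0.47 at day 7). *mt-Nd6*, a complex I subunit read from the light strand, rebounded from 170.4, 173 and 197 CPM in vehicle and 150.3, 142, 107 and 119.7 CPM after C70 at day 2 to 208, 267, 236 and 198 CPM and 332, 334, 293 and 299 CPM at day 7. The late genes *mt-Nd1*, *mt-Nd2* and *mt-Cytb*, for other respiratory subunits, had day 7 effects of 0.40 ± 0.047, 0.53 ± 0.07 and 0.55 ± 0.054 (adjusted P = 4.2e-08, 3.47e-07 and 1.33e-09). Under quantile normalization the day 7 effect of *mt-Nd1* was -0.071 and the shift of *mt-Cytb* -0.16, so these directions depend on the scaling.

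Rebounded genes in the other direction were led by *Trarg1* and *Ndrg1*. *Trarg1*, a regulator of glucose transporter trafficking in adipocytes, was at 8.10, 9.54 and 10.2 CPM in vehicle and 39.6, 47.6, 47.0 and 43.5 CPM after C70 at day 2. By day 7 vehicle had risen to 78.7, 81.7, 77.6 and 84.7 CPM and C70 to 58.7, 72.2, 65.0 and 60.2 CPM, and the groups stood apart on opposite sides (effects 2.26 ± 0.087 and -0.33 ± 0.064, adjusted P = 5.12e-19 and 9.72e-05). *Ndrg1*, a stress- and hypoxia-responsive gene (chr15:66929318-66969640), was at 12.7, 14.4 and 13.6 CPM in vehicle and 20.97, 21.4, 21.9 and 22.4 CPM after C70 at day 2. It then rose in both arms, to 174, 196, 198 and 205 CPM in vehicle and only 61.9, 67.02, 52.5 and 78.5 CPM after C70. Its day 7 effect of -1.57 ± 0.074 (adjusted P = 2.38e-16) was larger than its day 2 effect of 0.67 ± 0.10 (adjusted P = 2.17e-06) and opposite to it. The AP-1 factor *Jun* (-0.95 ± 0.062, adjusted P = 7.17e-13), the netrin receptor *Unc5b* (-1.25 ± 0.11, adjusted P = 5e-10) and the bicarbonate transporter *Slc4a4* (-1.21 ± 0.17, adjusted P = 1.85e-06) shifted in the same direction without overlap on either day.

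Preadipocyte markers remained high after C70 while adipocyte genes recovered. Of 10 in the table, 8 were higher at day 2 and all 10 at day 7, with a median effect of 0.93 and 0.97. Their summed level was 9648 to 10173 CPM in vehicle and 13246 to 14335 CPM after C70 at day 2, and 5649 to 6096 CPM against 9188 to 11024 CPM at day 7, with no overlap on either day. The classes held 8 as lasting and 2 as late. The marker list was drawn up with the collagens *Col1a1*, *Col3a1* and *Col6a3*, so it shares genes with the collagen list described below and is not separate from it. Of 37 matrix genes other than collagens, 30 were higher at day 2 and 29 at day 7, 24 were lasting and 4 had recovered. Of 27 genes of matrix turnover, 17 were higher at day 2 and 20 at day 7, and 14 were lasting. Of 21 Wnt pathway genes, 11 were higher at day 2 and 14 at day 7.

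Among lasting higher genes above the median level, the one with the largest smaller effect of the 2 days was *Dpt* (chr1:164796644-164824266), the matrix protein dermatopontin. It was at 60.0, 51.3 and 59.3 CPM in vehicle and 260.4, 234, 254 and 269.8 CPM after C70 at day 2. It was at 41.9, 23.4, 24.4 and 29.1 CPM and 115, 112, 112 and 122 CPM at day 7. Both arms had fallen about equally, so the effect was 2.16 ± 0.11 at day 2 and 1.96 ± 0.10 at day 7 (adjusted P = 2e-16 and 2.69e-15), and the shift of -0.20 ± 0.15 was not called (adjusted P = 0.315). *Dpt* was higher at day 0 (1.19, adjusted P = 3.03e-09) and day 1 (1.12, adjusted P = 3.36e-10) too.

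*Dlk1*, the preadipocyte inhibitor of differentiation, was at 159, 159 and 167 CPM in vehicle and 321, 301, 314 and 331 CPM after C70 at day 2, and at 249, 157, 170.4 and 233 CPM and 354, 365, 326 and 384 CPM at day 7. Its effect held, at 0.97 ± 0.096 and 0.82 ± 0.087 (adjusted P = 6.65e-10 and 5.89e-09). *Dcn*, the proteoglycan decorin, had 41.0, 41.0 and 41.8 CPM in vehicle and 243, 270.0, 244 and 225 CPM after C70 at day 2, and 74.6, 57.5, 73.4 and 74.1 CPM and 216, 217, 202 and 217 CPM at day 7. Here vehicle rose (0.76) and C70 was nearly level (-0.20), so the effect shrank by 0.97 but remained called. *Ccnd1*, cyclin D1, was at 14.6, 14.8 and 14.9 CPM in vehicle and 47.9, 42.9, 44.0 and 43.4 CPM after C70 at day 2, and at 45.3, 30.9, 30.8 and 33.7 CPM and 80.9, 67.5, 77.6 and 80.0 CPM at day 7 (effects 1.59 ± 0.093 and 1.13 ± 0.077, adjusted P = 7.85e-15 and 7.14e-13).

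Many lasting effects had shrunk. In 223 of the 1107 lasting higher genes the shift was called against the day 2 direction, in 791 it was not called and in 93 the effect had grown. Among those that shrank were *Apod*, a lipid-binding lipocalin, with 45.7, 39.1 and 45.0 CPM in vehicle and 593, 615, 598 and 631 CPM after C70 at day 2, and 111, 55.9, 65.0 and 82.3 CPM and 305, 268, 278 and 311 CPM at day 7 (effects 3.82 ± 0.16 and 1.89 ± 0.13, shift adjusted P = 3.8e-09). The stem and progenitor surface genes *Thy1* and *Ly6a* and the progenitor marker *Pi16* shifted by -1.31 ± 0.19, -1.72 ± 0.18 and -1.70 ± 0.29 (adjusted P = 3.36e-06, 9.59e-09 and 4.24e-05). They stayed above vehicle at day 7 by 1.39, 0.83 and 1.09. *Mylk*, myosin light chain kinase, and *Fam107a*, an actin-associated glucocorticoid target, were likewise higher on both days, with day 7 effects of 0.56 ± 0.06 and 0.74 ± 0.054 (adjusted P = 6.16e-09 and 3.48e-12).

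Cholesterol synthesis was the list with the most lasting lower genes. Of its 26 genes, C70 lowered 22 at day 2 and 13 at day 7, and none was higher on either day. Their median effect went from -0.95 to -0.35, and 17 shifted upward, so 8 recovered, 9 shrank but lasted and 4 held. The day 7 count was also 13 without vehicle replicate 1.

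*Hmgcs1*, an early enzyme of the pathway (chr13:119690379-119708260), held its difference, with 489, 469.5 and 489 CPM in vehicle and 284, 301, 272 and 261 CPM after C70 at day 2, and 380.4, 451, 424 and 375 CPM and 272, 259, 253 and 249 CPM at day 7. The groups did not overlap on either day (effects -0.79 ± 0.059 and -0.66 ± 0.056, adjusted P = 2.15e-12 and 6.12e-11), and the shift of 0.13 ± 0.081 was not called (adjusted P = 0.249). *Insig1*, which holds the sterol-sensing complex in the endoplasmic reticulum, and *Fdps*, farnesyl diphosphate synthase, moved further back towards vehicle, with shifts of 1.14 ± 0.076 and 1.20 ± 0.14 (adjusted P = 1.11e-12 and 1.28e-07). They were still lower at day 7 by -0.48 and -0.70 (adjusted P = 7.35e-09 and 2.16e-08). *Cyp51*, lanosterol demethylase, was sorted as recovered at -0.31 ± 0.056 (adjusted P = 4.12e-05), close to the limit and with all C70 libraries below vehicle, and *Pmvk*, a mevalonate pathway kinase, at -0.27 ± 0.094 (adjusted P = 0.0209). Outside this list, *Mt1*, a metallothionein, was at 819, 850.1 and 819 CPM in vehicle and 441, 485, 494 and 471 CPM after C70 at day 2, and at 2712, 1925, 1953 and 2103 CPM and 1207, 1577, 1289.7 and 1292 CPM at day 7, and its shift was not called (0.11 ± 0.11, adjusted P = 0.467). *Trim29*, a tripartite motif protein, was lower on both days (-1.16 ± 0.08 and -0.83 ± 0.062, adjusted P = 3.1e-13 and 4.56e-12) after having been higher at day 0 (0.99, adjusted P = 0.0244).

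Nuclear genes of oxidative phosphorylation were called lower on both days, but at day 7 the number of calls rested largely on vehicle replicate 1. Of 36 complex I genes, 18 were lower 2 days after induction and 16 at day 7, or 6 at day 7 without that library. For complexes II to IV, 13 of 25 were lower on each day, with 1 at day 7 without it, and for ATP synthase 8 of 17 at day 2 and 6 at day 7, with 0 without it. For mitochondrial ribosome proteins, 25 of 77 were lower on the earlier day and 17 on the later, with 4 without it. The median day 7 effects of complex I, complexes II to IV, ATP synthase and mitochondrial ribosome genes were -0.31, -0.33, -0.30 and -0.21 with all libraries and -0.19, -0.22, -0.17 and -0.11 without it. Leaving out C70 replicate 2 instead gave 22, 18, 10 and 21 lower genes, and leaving out both gave 6, 4, 0 and 5. *Atp5g3*, an ATP synthase subunit, was at 640.2, 627 and 648 CPM in vehicle and 389.9, 421, 413 and 396 CPM after C70 at day 2, and at 689, 559, 567 and 570.4 CPM and 459.8, 497, 464 and 440.2 CPM at day 7. Its effect of -0.36 ± 0.052 (adjusted P = 1.71e-06) was -0.28 without vehicle replicate 1, under the fold threshold. *Ndufs1*, a core subunit of complex I, recovered (shift 0.35 ± 0.06, adjusted P = 3.47e-05), *Ndufa6*, an accessory subunit, was called at day 7 (-0.53 ± 0.072, adjusted P = 5.61e-07) and under the fold threshold at day 2 (-0.23 ± 0.079, adjusted P = 0.0163), with its shift not called, and *Uqcrc2* of complex III and *Atp5b* of ATP synthase remained unresolved (day 7 effects -0.23 ± 0.043 and -0.061 ± 0.046). Without vehicle replicate 1 the shifts of *Uqcrc2* and *Atp5b* were 0.35 and 0.38 and were called. Of 41 genes of the citric acid cycle and fatty acid oxidation, 27 were lower and 3 higher at day 2, and 3 and 1 at day 7 (1 and 3 without vehicle replicate 1), and *Mdh1*, malate dehydrogenase, and *Pdhb*, of pyruvate dehydrogenase, recovered with shifts of 0.65 ± 0.082 and 0.64 ± 0.072 (adjusted P = 3.32e-07 and 4.42e-08).

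**Figure D5:**
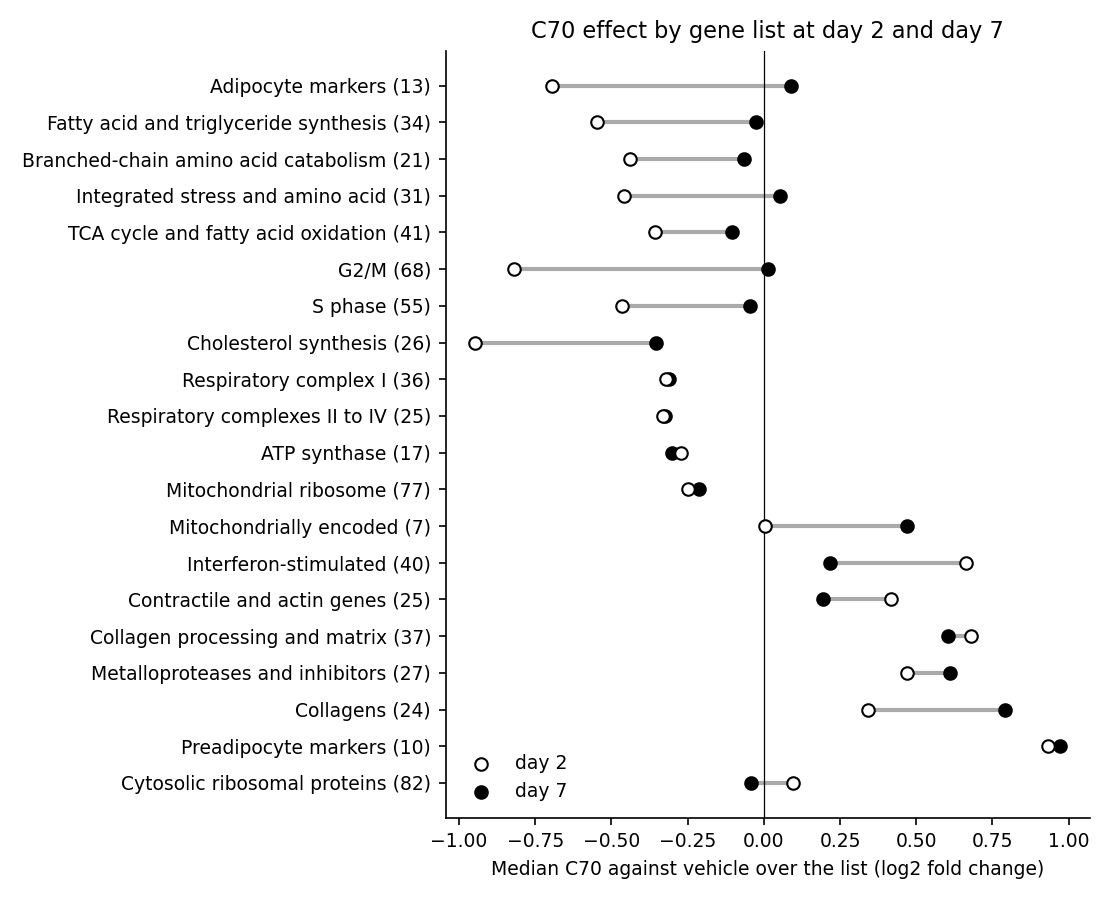
Median log2 C70 effect of each gene list at day 2 and at day 7, 1 line per list, with the number of genes measured beside its name. Adipocyte markers go from -0.69 to 0.088, G2 and mitosis genes from -0.82 to 0.014 and cholesterol synthesis from -0.95 to -0.35, while preadipocyte markers stay at 0.93 and 0.97.

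Late genes that were higher after C70 included collagens. Over all late higher genes the median log2 effect was 0.018 at day 2 and 0.60 at day 7. In 87 of the 246 (35.4%) expression fell in both arms from day 2 to day 7, and in 63 (25.6%) it fell in vehicle only. Of 24 collagen genes, 12 were higher and 1 lower at day 2, and 16 were higher and 2 lower at day 7. The median effect of collagens went from 0.34 to 0.79, 6 were late and higher, and of the 10 that were lasting and higher 5 had grown.

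*Col11a1*, a fibrillar collagen (chr3:114030540-114220718), was at 28.5, 27.9 and 28.4 CPM in vehicle and 31.2, 34.5, 35.1 and 32.4 CPM after C70 at day 2. By day 7 vehicle had fallen to 19.6, 16.7, 14.9 and 20.7 CPM while C70 stood at 44.6, 38.9, 51.5 and 49.1 CPM. The day 2 groups were close but separate, and the day 7 groups far apart (effects 0.24 ± 0.081 and 1.36 ± 0.078, shift adjusted P = 4.58e-09). *Fgf10*, a growth factor secreted by preadipocytes, fell in both arms, from 77.2, 69.8 and 77.2 to 14.5, 14.4, 12.2 and 14.96 CPM in vehicle and from 84.5, 83.1, 81.5 and 80.6 to 31.2, 26.6, 27.5 and 32.5 CPM after C70 (day 7 effect 1.08 ± 0.073, adjusted P = 6.35e-13). *Pdgfra*, a receptor of adipocyte progenitors, had 161, 163, 174 and 206 CPM in vehicle and 365, 305, 369 and 403 CPM after C70 at day 7, an effect of 1.04 ± 0.069 (adjusted P = 4.47e-13) against 0.29 ± 0.073 at day 2. The imprinted gene *Mest*, the Wnt ligand *Wnt5a*, the matrix protease *Adamts12*, the peroxidase *Gpx8* and the transcript AI506816 were also late. Their day 7 effects were 0.99 ± 0.088, 1.26 ± 0.095, 0.97 ± 0.094, 1.21 ± 0.091 and 0.78 ± 0.051, each with an adjusted P of 9.77e-10 or lower. On the earlier days some of these genes were lower after C70. The effects of *Mest* were -0.56 at day 0 and -0.39 at day 1 (adjusted P = 8.64e-06 and 0.000463), and those of *Adamts12* -0.35 and -0.42 (adjusted P = 0.0153 and 0.000922). At day 1 AI506816 and *Col11a1* were lower too (-0.60 and -0.34, adjusted P = 7.07e-11 and 0.000387).

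Late genes that were lower after C70 included *Hspa5*, *Creld2* and *Manf*, which encode a chaperone and other proteins of the endoplasmic reticulum. *Hspa5* and *Creld2* are described beside *Manf*, the first gene of this class by the naming rule, and were chosen after their values were seen. Genes of the unfolded protein response are known for the ER stress response element, in which CCAAT and CCACG stand 9 bases apart. This motif was likewise chosen after the values were seen. It contains a CCAAT box and was present on either strand in 15 of the 9007 promoters (0.167%). Of these 15 genes, 4 were lower at day 7 (4.85% of all genes tested were), 1 was higher, 7 shifted downward (9.04% of all genes tested did) and none upward. The late ones were *Hspa5*, *Hsp90b1* and *Creld2*, and the lower genes also included *Acacb*, an acetyl-CoA carboxylase. Other genes of the endoplasmic reticulum among the 15, *Canx*, *Pdia6*, *Dnajc3*, *Syvn1*, *Alg12* and *Calr*, were not called at day 7. Since the motif was chosen with these values in view, the counts are a description only. The promoters of *Hspa5* (chr2:34771840-34772139, plus strand) and *Creld2* (chr15:88819396-88819695, plus strand) are shown with the match in capitals, as examples of members of this group.
Hspa5: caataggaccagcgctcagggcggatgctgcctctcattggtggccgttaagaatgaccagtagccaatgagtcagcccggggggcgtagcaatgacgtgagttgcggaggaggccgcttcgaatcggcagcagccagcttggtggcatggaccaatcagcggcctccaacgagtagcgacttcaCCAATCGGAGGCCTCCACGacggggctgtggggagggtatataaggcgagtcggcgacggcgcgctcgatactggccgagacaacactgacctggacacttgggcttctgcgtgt
Creld2: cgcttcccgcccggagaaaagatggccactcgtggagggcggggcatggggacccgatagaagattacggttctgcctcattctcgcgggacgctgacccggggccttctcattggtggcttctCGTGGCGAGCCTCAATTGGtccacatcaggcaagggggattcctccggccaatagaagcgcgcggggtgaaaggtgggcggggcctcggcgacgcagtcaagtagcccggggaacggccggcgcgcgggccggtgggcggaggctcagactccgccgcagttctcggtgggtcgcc

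*Hspa5*, the main chaperone of the endoplasmic reticulum, was at 735, 699.7 and 723 CPM in vehicle and 736, 733, 768 and 762 CPM after C70 at day 2. Vehicle then rose to 1308, 1294, 1301 and 1062 CPM at day 7, while C70 stayed at 716, 692, 666 and 815 CPM. The groups overlapped at day 2 and were apart at day 7, by -0.78 ± 0.055 (adjusted P = 1.45e-12). *Creld2*, a folding factor, had 47.3, 42.0, 44.8 and 37.7 CPM in vehicle and 23.96, 24.9, 22.1 and 27.4 CPM after C70 at day 7 (-0.80 ± 0.068, adjusted P = 5.47e-11), and *Manf*, a secreted survival factor of stressed cells, 83.9, 67.5, 71.2 and 56.8 CPM and 43.6, 44.4, 40.8 and 49.6 CPM (-0.65 ± 0.076, adjusted P = 4.2e-08). *Pfkp*, a phosphofructokinase of glycolysis, had 439, 396, 386 and 413 CPM in vehicle and 263, 283, 273 and 264 CPM after C70 at day 7 (-0.59 ± 0.049, adjusted P = 4.45e-11). *Hmox1*, heme oxygenase, and *Tgm2*, a transglutaminase, had late effects of -0.67 ± 0.053 and -0.45 ± 0.058 (adjusted P = 1.8e-11 and 2.45e-07). Of 29 genes of glycolysis and the hypoxia response, 15 were lower and 5 higher at day 2, and 12 were lower and none higher at day 7, and 9 of them were lasting and lower. Genes that respond to the handling of cells also differed at day 7. Of 11 such immediate early and heat shock genes, 6 were lower and 1 higher at day 7 (4 higher at day 2), among them *Jun*. The early response phosphatase *Dusp1*, counted with the glucocorticoid genes, was lower as well (-0.39 ± 0.071, adjusted P = 5.59e-05), but under the fold threshold without vehicle replicate 1 (-0.318) and without C70 replicate 2 as well (-0.27). The summed level of the 11 handling genes was 1145 to 1343 CPM in vehicle and 846 to 951 CPM after C70 at day 7, and 1237 to 1287 CPM and 1252 to 1280 CPM at day 2. The part of handling in the late and rebounded effects was not tested.

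The C70 effects of days 0 and 1 were not used in the sorting, although the libraries of these days entered the shared estimate of the spread and the scaling. Without day 1 C70 replicate 1, for example, the median shift over all genes was 0.0032 instead of 0.0149, and 689 lower genes recovered instead of 731. At day 1, 13.6% of all genes were higher after C70 and 7.80% lower (21.4% in all), and at day 0, 5.89% and 3.09% (8.97% in all). Among genes higher at day 2, 290 of 460 recovered genes (63.0%), 707 of 1107 lasting genes (63.9%) and 31 of 48 rebounded genes (64.6%) were already higher at day 1. Among genes lower at day 2, 279 of 731 recovered genes (38.2%), 80 of 208 lasting genes (38.5%) and 27 of 66 rebounded genes (40.9%) were already lower at day 1. The share called at day 1 was therefore alike in the recovered and lasting classes of a direction, and these shares were not tested against each other. At day 0 the shares were 104 of 460 (22.6%) recovered and 267 of 1107 (24.1%) lasting genes among those higher at day 2, and 57 of 731 (7.80%) and 11 of 208 (5.29%) among those lower at day 2. The last count was 5 without day 0 vehicle replicate 2. Within lasting higher genes, 215 of the 223 that shrank (96.4%) and 29 of the 93 that grew (31.2%) were higher at day 1. Their day 2 effects differed in size as well, with a median of 1.51 in those that shrank and 0.53 in those that grew. These shares therefore do not compare genes of like day 2 effect. Late genes could not have been called at day 2, and among the 8317 genes not called then 4.97% were higher and 4.14% lower at day 1. Of the late genes, 32 of 246 higher genes (13.01%) and 7 of 118 lower genes (5.93%) were called at day 1 in the direction of day 7, and 20 (8.13%) and 16 (13.6%) in the opposite direction. At day 0, 10 late higher genes were higher and 22 lower, and 6 late lower genes were lower and 10 higher. The count of 6 was 3 without day 0 vehicle replicate 1 and also 3 without day 0 C70 replicate 3. Among all genes higher at day 2, 58.5% were already higher at day 1, and among all genes lower at day 2, 35.8% were already lower.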

How the data were processed

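RNA had been extracted with miRNeasy columns and sequenced after strand-specific, poly(A)-selected library preparation. The submitters' processing notes name STAR 2.7.2a, the GRCm38 build and edgeR 3.26.8. The authors deposited whole-number counts for 11959 genes (11953 with a symbol), without scaling although the table is named as normalized. The counting program, its use of strand and the filter on low genes are not given in the sources used here.

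A single quasi-likelihood fit of all 29 libraries was made with edgeR 4.0.16 in R 4.3.3, using TMM factors (0.898 to 1.08), 8 group means, no covariate and no filter. The common biological coefficient of variation was 0.0594. No sample was dropped or imputed in this fit. CPM values use TMM-scaled library sizes. Contrasts were C70 against vehicle on each day, day 7 against day 2 in each arm, and the difference of the last pair. P values were adjusted by Benjamini-Hochberg within each contrast, and calls also needed a fold change over 1.25. Members and lists were chosen with earlier results of these data known, and lists were described without set tests.

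The genes named were, per class and direction, the 4 with the largest shift (for lasting genes, the largest smaller effect of the 2 days) among genes above the median level whose C70 and vehicle libraries did not overlap on the days that define the class. In each of the lists with 5 or more genes, the 4 with the largest shift and every rebounded gene could be named, as could genes the study examined. The text describes a part of these 174 genes, and some genes that the rule names are not reported here.

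On simulated counts for the effect lost between day 2 and day 7, the test recovered 76% of 100 genes changed 1.5-fold and 96% of 100 changed 2-fold, with 10 false calls among 11959 genes. The replicate numbers did not pair the samples (same-number correlations of -0.030 to 0.041 at day 2 and -0.281 to 0.277 at day 7). Gene positions are from GENCODE M21 and promoters from RefSeq. With promoters for 9007 genes (75.3%), a comparison of promoters between classes was not made. Alternatives were DESeq2 1.42.0, median of ratios and quantile scaling, limma 3.58.1 on log2(CPM + 1), only the 15 libraries of days 2 and 7, a replicate block, removal of the 25% of genes with the lowest mean level, other thresholds, a joint adjustment, and leaving out each of the 29 libraries. Leaving out day 7 vehicle replicate 1 and day 7 C70 replicate 2 together was chosen after seeing the data.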

Additional observations from a re-analysis of the deposited data

Results flagged for a closer look

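In groups of 4 libraries, 312 of which were examined, a single library lay far from the other 3 in 26 cases, where chance gives about 1 in 20. Day 7 vehicle replicate 1 accounted for 12 of them. It was high for *Cfd* (4274 CPM), *Cidec* (4385 CPM), *G0s2* (266.7 CPM), *Bcat2* (1463 CPM), *Mdh1* (975.9 CPM), *Pdhb* (423.0 CPM), *Thrsp* (884.9 CPM), *Adipoq* (1620 CPM), *Atp5b* (2783 CPM) and *Atp5g3* (688.6 CPM), and low for *Adamts12* (142.1 CPM) and *Bub1* (0 CPM). Among the other day 7 vehicle libraries, replicate 2 was low for *Dcn* (57.48 CPM), replicate 3 low for *Cdca5* (0.2940 CPM) and *Hmox1* (330.4 CPM), and replicate 4 low for *Ndufs1* (380.4 CPM) and *Hspa5* (1062 CPM). Among the day 7 C70 libraries, replicate 2 was high for *Mgll* (25.85 CPM) and low for *Wnt5a* (18.34 CPM). C70 replicate 3 of that day was low for *Plin3* (88.58 CPM) and *Dcn* (201.5 CPM) and high for *Per3* (44.50 CPM), and replicate 4 was low for *Phgdh* (145.1 CPM). At day 2, C70 replicate 2 was low for *Unc5b* (95.11 CPM), and replicate 3 was low for *Thy1* (71.17 CPM) and high for *Pi16* (21.31 CPM).

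The C70 effect was called in opposite directions on the 2 days in 48 genes that were higher and 66 that were lower at day 2, and in each of them the shift between days was called by edgeR's quasi-likelihood test. Among genes that were higher at day 2, the log2 shift was -2.60 for *Trarg1*, -2.24 for *Ndrg1*, -1.25 for *Unc5b*, -1.21 for *Slc4a4* and -0.95 for *Jun*. Among lipid genes that were lower at day 2 it was 2.95 for *Thrsp*, 1.24 for *Adipoq*, 1.22 for *Acly*, 0.87 for *Acaca* and 0.76 for *Cd36*. For cell cycle genes it was 2.26 for *Bub1*, 1.71 for *Cdca5*, 1.68 for *Birc5*, 1.45 for *Plk4*, 1.07 for *Cdk1*, 0.93 for *Pole* and 0.82 for *Tpx2*. For amino acid genes it was 1.28 for *Chac1*, 0.94 for *Slc7a1* and 0.80 for *Phgdh*. It was 1.61 for *Siglec1*, 1.36 for *Spry1*, 1.23 for *Per3*, 1.02 for *Sgk1*, 0.94 for *mt-Nd6* and 0.77 for *Lef1*.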

How the results depend on the processing

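The fold threshold moved the counts most. With a fold change over 1.5, 618 genes shifted up and 516 down, 189 higher and 257 lower genes recovered, 11 and 10 rebounded, 592 and 30 were lasting, 122 and 36 were late, and 261 lower genes were unresolved. On the adjusted P value alone, 1658 genes shifted down, 203 higher and 256 lower genes rebounded, 1683 and 1079 were lasting and 375 late genes were lower. Under this setting 158 recovered higher, 125 recovered lower, 22 lasting lower, 21 late higher and 10 late lower genes were called at day 0, and 50 late higher and 19 late lower genes at day 1. Without the 25% of genes of lowest mean level, which tests fewer genes, 23 higher genes rebounded, 129 lower genes were lasting, 247 and 348 were unresolved and 76 late genes were lower. Quantile normalization gave 38 rebounded lower and 156 late higher genes, a day 7 effect of -0.071 for *mt-Nd1* and a shift of -0.16 for *mt-Cytb*, and the cause was not tested. DESeq2, median of ratios scaling, limma, the fit to 15 libraries, the joint adjustment and the removal of day 7 vehicle replicate 1 together with day 7 C70 replicate 2 kept every count within 1.5 times.

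Leaving out each library in turn gave 1347 to 1482 upward and 1008 to 1166 downward shifts, 429 to 495 higher and 652 to 749 lower recovered genes, 42 to 52 and 54 to 79 rebounded, 1050 to 1156 and 159 to 231 lasting, 383 to 466 and 563 to 647 unresolved, and 217 to 262 and 103 to 156 late genes. Members called at day 0 numbered 93 to 107 and 49 to 62 (recovered), 241 to 275 and 5 to 13 (lasting), and 9 to 12 and 3 to 7 (late). Members called at day 1 numbered 287 to 301 and 237 to 283, 674 to 718 and 67 to 85, and 27 to 33 and 7 to 9. The shifts of the 104 genes described kept their direction and call in 4100 of 4156 values over all alternatives, with 11 genes losing the call in 1 or more and 1 reversed. Their day 2 effects did so in 4100 values too, with 17 genes losing the call in 1 or more and 0 reversed. Their day 7 effects did so in 4044 values, with 31 genes losing the call in one or more and 1 reversed. With the replicate block, 1239 genes shifted up and 861 down, 379 and 648 recovered, 40 and 64 rebounded and 1037 and 184 were lasting. The numbers do not pair the samples, so these counts describe a shared number only.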
